A study of Rattus norvegicus with 27 samples.

Results

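AMPA receptors carry most of the fast excitatory current at cortical synapses, and 9 genes of these receptors are described here in the medial prefrontal cortex (mPFC) of resting rats. They are the pore subunits Gria1, Gria2, Gria3 and Gria4, the cornichons Cnih2 and Cnih3, and the transmembrane AMPA receptor regulatory proteins (TARPs) Cacng2, Cacng3 and Cacng8. The members were taken by symbol, by a rule that uses no measured value, though with earlier results of these data known, and in the order above their NCBI gene IDs are 50592, 29627, 29628, 29629, 361705, 690252, 84347, 140724 and 140729. All 9 were found, 1 row each, among the 36865 rows of the count table, and all 9 had a mean count of at least 10, as had 11730 rows in all. Cnih2 also stands on a gene list that the study drew from these rats with the light-dark box, an anxiety test, which is no independent evidence here.

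The study tested whether averages over repeated anxiety tests have correlates in mPFC expression. Bilateral mPFC was taken from 27 adult male Wistar rats killed straight from the home cage, and each rat gave 1 polyA RNA library, named here by its number. Rats were chosen to span a composite anxiety score, which was not analysed here, so there is 1 group, no control group and no comparison of treatments. The labels give Wistar rats as the genotype and Learned helplessness as the treatment of all 27, while the protocol fields and the study's methods describe repeated anxiety tests with further behavioural tests.

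Each AMPA receptor is a tetramer of pore subunits, most often with GluA2, the product of Gria2, whose edited form keeps calcium out of the pore. Cornichons help the receptor out of the endoplasmic reticulum and slow its closing. TARPs bring it to the surface, hold it at the postsynaptic density and modify its current, and TARPs and cornichons sit together on many cortical receptors.

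Libraries held 4907255 to 12771309 counts, with a median of 8168801. The library number parted the totals without overlap. The 16 libraries numbered up to 31, called the first block, had 4907255 to 8568317 counts, and the 11 libraries numbered from 32, the second block, had 9404220 to 12771309. What the numbers stood for was not given in the sources used here, and per the study's methods the male Wistar rats came in 2 cohorts, whose numbers were not given either. Depth, cohort and any other difference between the blocks thus cannot be told apart, and within-block values are given beside the pooled value for the relations described in full. Library 3 stood apart, with the lowest pyramidal neuron marker sum (12155.7 normalized counts, against 17121 to 22721.2 in the second block) and the highest oligodendrocyte marker sum of the 27 (59784.6, against 16557.9 to 34619.4 in the second block). Libraries 12 and 20 had the largest shares of 18S ribosomal RNA, 0.228% and 0.195% of counts against a median of 0.0187%. All 6 pyramidal neuron markers were detected, and 6 of 7 interneuron markers, Sst being listed at 0 in all 27 libraries. In homogenised tissue, fewer cells of a type and less RNA per cell cannot be told apart.

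Normalized counts are counts divided by a size factor for each library. They were compared for 1 gene across rats only, because no transcript lengths were used, so the levels of different genes were not ranked. Among the pore subunits, Gria2 had 8760 ± 1232 normalized counts (SD, n = 27). Its lowest value was 5845 in library 26, its median 8794 and its highest 11496 in library 20. Library 26 was also the lowest for Gria3 and Gria4, and library 20 was also the highest for both.

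Gria3 ran from 2902 through a median of 4127 to 4690, with a mean of 4005 ± 432 (SD, n = 27). Gria4, a subunit of many interneuron receptors, ran from 848 through 1215 to 1544, with a mean of 1182 ± 162 (SD, n = 27). The highest library was 1.62 times the lowest for Gria3 and 1.82 times for Gria4.

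Gria1, whose product is inserted into synapses during potentiation, had the widest range of the 9. It ran from 609 in library 3 through a median of 1549 to 2043 in library 12, a 3.36-fold range, with a mean of 1476 ± 273 (SD, n = 27). That width rested on library 3, which lay well under the next lowest, library 18 at 1064.5, and the highest value was 1.92 times that of library 18. Library 12 lay above the next highest, library 20 at 1711.

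**Figure D1:**
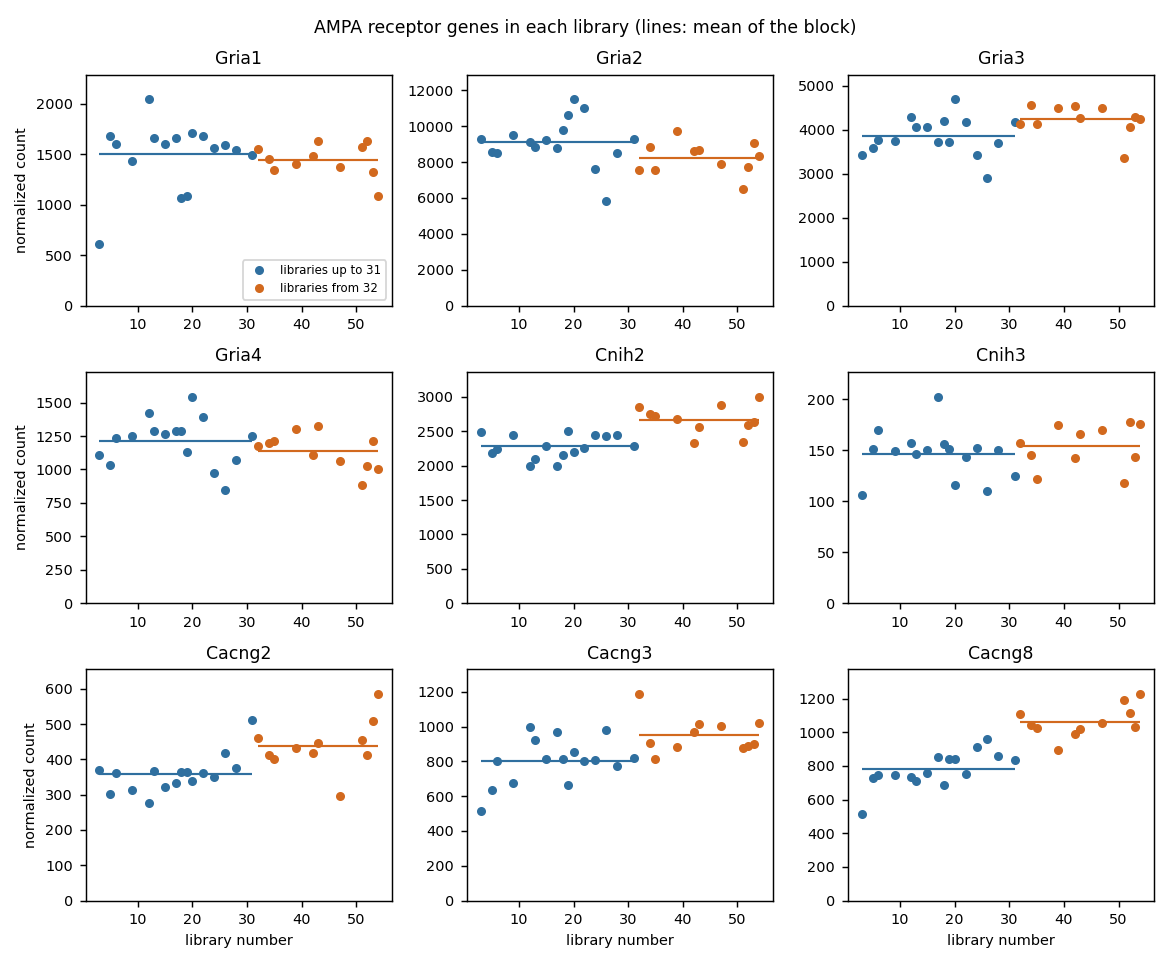
Normalized count of each of the 9 genes (y axis, from 0) against library number (x axis), 1 point per rat, blue up to 31 (n = 16) and orange from 32 (n = 11), with lines at the block means. Gria1 in library 3 sits at 609, under all others, and most Cacng8 points from 32 lie above those up to 31.

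Cnih2, the cornichon tied to AMPA receptors of hippocampal and cortical principal cells, had the narrowest range of the 9. It ran from 1998 in library 12 through 2444 to 3003 in library 54, with a mean of 2438 ± 267 (SD, n = 27) and a 1.50-fold range. Its high values lay in the second block, where 9 of 11 libraries exceeded every library of the first.

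Cnih3, its close relative, was counted least, with 69 to 248 raw counts a library. It ran from 106 in library 3 through 150 to 202 in library 17, with a mean of 149 ± 22.6 normalized counts (SD, n = 27). Counting alone gave 29.7% of its variance, against 0.597% to 7.65% for the other 8. Its standard errors were not the largest, being 0.08 on the log2 scale between the 2 blocks of libraries, against 0.11 for Gria1 (edgeR).

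Among the TARPs, Cacng2 (stargazin, the founding member) ran from 277 in library 12 through 370 to 584 in library 54, with a mean of 391 ± 71.8 (SD, n = 27). Cacng3 ran from 514 in library 3 through 874 to 1186 in library 32, with a mean of 862 ± 140 (SD, n = 27). Cacng8, the TARP best known from hippocampus, ran from 515 in library 3 through 862 to 1227 in library 54, with a mean of 896 ± 172 (SD, n = 27). Library 3 was thus the lowest of the 27 for Gria1, Cnih3, Cacng3 and Cacng8, but ranked 21st from the lowest for Gria2 and 17th for Cnih2.

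All 9 genes varied beyond counting noise (chi-square test of the spread against Poisson counting, Benjamini-Hochberg over 11730 genes), as did 89.8% of the genes tested. The variance was 3.32 (Cnih3) to 171 (Gria2) times that of counting. On the log2 scale the SD was 0.33 for Gria1, 0.29 for Cacng8, 0.26 for Cacng2, 0.25 for Cacng3, 0.22 for Cnih3, 0.21 for Gria2, 0.20 for Gria4 and 0.16 for Gria3 and Cnih2. The median over all tested genes was 0.19, and Gria3 and Cnih2 were the 2 members below it. Without library 3 the SD of Gria1 was 0.22, below those of Cacng2 at 0.26 and Cacng8 at 0.25.

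The blocks were then compared, to find which members a depth or batch difference could move. 4 of the 9 passed the test and all 4 were higher in the second block, namely Cacng8, Cnih2, Cacng2 and Cacng3 (edgeR quasi-likelihood test, Benjamini-Hochberg over 11697 genes). The test called 18.6% of all genes in either direction and 7.85% as higher in the second block. All 3 TARPs and 1 cornichon were among those called, and none of the 4 pore subunits was.

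Cacng8 had 515 to 963 normalized counts in the first block, median 756, and 895 to 1227 in the second, median 1046. Only 2 of the 16 first-block libraries reached into the range of the second. The log2 difference, second minus first block, was 0.43 with a standard error of 0.06 (edgeR, adjusted p = 2.33e-05).

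Cnih2 had 1998 to 2497 in the first block and 2327 to 3003 in the second, median 2678. The ranges overlapped, with 6 first-block libraries above the lowest of the second. Its log2 difference was 0.22 with a standard error of 0.04 (edgeR, adjusted p = 0.000626).

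Cacng2 had 277 to 512 in the first block and 297 to 584 in the second, with medians of 361 and 433. The ranges overlapped, 15 of 16 first-block libraries lying above the lowest of the second. That count rests on library 47 at 297, the next lowest of the second block being library 35 at 400. The log2 difference of Cacng2 was 0.28 with a standard error of 0.08 (edgeR, adjusted p = 0.0138). Cacng3 had 514 to 995 in the first block and 811 to 1186 in the second, with medians of 810 and 904. For Cacng3, 8 first-block libraries lay in the range of the second, and the log2 difference was 0.23 with a standard error of 0.08 (edgeR, adjusted p = 0.0351).

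The other 5 members did not pass this test. Their log2 differences were -0.16 for Gria2 (standard error 0.07), 0.13 for Gria3 (0.06), -0.10 for Gria4 (0.07), -0.07 for Gria1 (0.11) and 0.06 for Cnih3 (0.08), with edgeR adjusted p from 0.116 to 0.690. Without libraries 12 and 20, Gria3 passed as well, at a log2 difference of 0.17 (edgeR, adjusted p = 0.0260). The blocks overlapped for all 9 members, and they did not overlap for 0.324% of the 11730 genes. The summed pyramidal neuron markers ran from 12155.7 to 22916.3 in the first block (median 19823.5) and from 17121 to 22721.2 in the second (median 20564.9), and those of oligodendrocytes from 16998.8 to 59784.6 (median 25609.3) and from 16557.9 to 34619.4 (median 32116.5), and their part in these differences was not tested. 2 of the 6 pyramidal markers were higher in the second block by the same test and none lower, 1 of 6 tested interneuron markers was higher, and of the 6 astrocyte markers 1 was lower and none higher, with a median log2 difference of -0.14. The part of these cell types in the members' differences was not tested either.

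**Figure D2:**
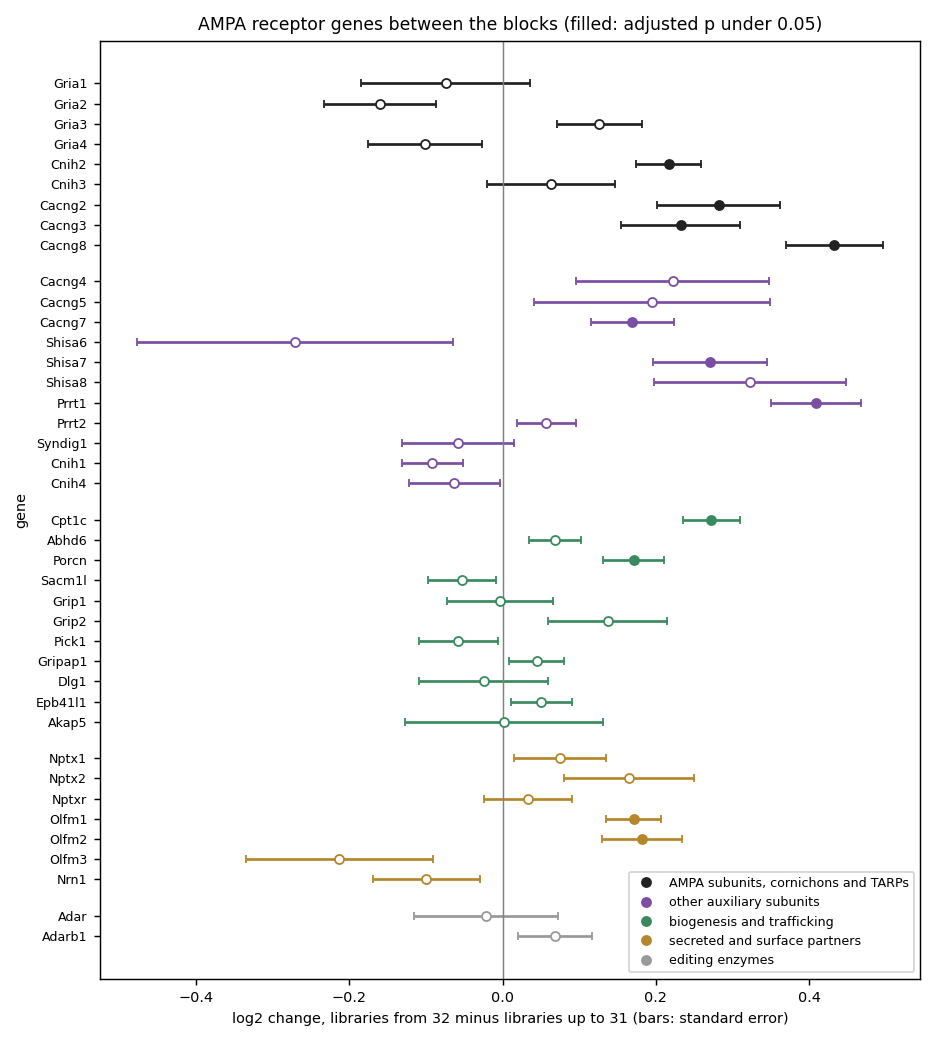
Log2 difference, second minus first block, from edgeR (x axis) for the 9 members and the 31 tested genes of 4 further AMPA receptor lists (y axis), bars being 1 standard error and filled points an adjusted p under 0.05. Filled points all lie right of 0, from 0.17 to 0.43, the latter being Cacng8.

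The wider pathway was read from 4 lists holding 35 genes, 31 of them tested. Of these, 7 were higher in the second block and 0 lower (edgeR, Benjamini-Hochberg over 11697 genes), against 7.85% of all genes called higher and 18.6% called in either direction, with a median log2 difference of 0.06 over the 31, 0.13 over the 9 members and -0.01 over all genes tested. Among other auxiliary subunits 3 of 11 tested rose, including Prrt1 (SynDIG4, a partner of extrasynaptic AMPA receptors), from 2286 ± 275 (SD, n = 16) to 3059 ± 309 (SD, n = 11) normalized counts, a log2 difference of 0.41. Shisa7, from the Shisa family of auxiliary proteins, rose by 0.27, from 2151 ± 311 (SD, n = 16) to 2617 ± 339 (SD, n = 11).

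Of the biogenesis and trafficking genes, 2 of 11 tested rose. Cpt1c, which sits with newly made AMPA receptors in the endoplasmic reticulum, rose by 0.27, from 922 ± 67.3 (SD, n = 16) to 1122 ± 57.6 (SD, n = 11). Of the secreted and surface partners 2 of 7 rose, the olfactomedins Olfm2 and Olfm1, by 0.18 and 0.17, and of the 2 editing enzymes, Adar and Adarb1, neither passed. Frrs1l, Nsf, Gsg1l and Shisa9 were listed at 0 in all 27 libraries, and since Nsf serves membrane fusion in every cell, a 0 here says only that the gene is listed so.

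For 3 of the members that were higher in the second block, Cnih2, Cacng8 and Cacng2, the promoters are printed because Cacng8 and Cnih2 passed the block test most clearly and Cacng2 was paired with both of them over all 27 libraries, though not with the block as a term. Cacng3 is not printed. They are 300 bases around the annotated start, from RefSeq for GRCr8, 5′ to 3′ on the gene's own strand, and 6 of the 9 members had an entry. Capitals mark any of 5 motifs searched on both strands: the GC box GGGCGG, the TATA box TATAAA, the CCAAT box CCAAT, the E-box CACGTG and the cAMP response element TGACGTCA.
Cnih2 promoter, chr1:211834388-211834687, minus strand: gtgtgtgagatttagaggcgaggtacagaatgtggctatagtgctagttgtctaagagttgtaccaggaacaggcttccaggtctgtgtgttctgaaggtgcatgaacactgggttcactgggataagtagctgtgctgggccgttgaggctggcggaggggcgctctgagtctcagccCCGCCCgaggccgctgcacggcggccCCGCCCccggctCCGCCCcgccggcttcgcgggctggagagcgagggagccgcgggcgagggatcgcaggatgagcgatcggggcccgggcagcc
Cacng8 promoter, chr1:74690954-74691253, minus strand: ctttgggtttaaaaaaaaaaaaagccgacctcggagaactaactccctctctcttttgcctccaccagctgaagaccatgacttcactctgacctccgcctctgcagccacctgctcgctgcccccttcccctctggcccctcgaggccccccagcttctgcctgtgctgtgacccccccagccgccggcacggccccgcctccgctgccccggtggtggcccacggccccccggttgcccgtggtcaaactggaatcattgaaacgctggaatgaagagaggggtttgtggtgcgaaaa
Cacng2 promoter, chr7:111577708-111578007, minus strand: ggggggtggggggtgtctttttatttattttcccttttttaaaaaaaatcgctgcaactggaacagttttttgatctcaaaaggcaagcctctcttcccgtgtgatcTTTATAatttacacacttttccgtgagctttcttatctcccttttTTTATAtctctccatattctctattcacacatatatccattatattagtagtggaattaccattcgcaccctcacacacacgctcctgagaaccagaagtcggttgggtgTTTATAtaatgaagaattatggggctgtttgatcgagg

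The 3 windows shared no motif match. That of Cnih2 held 3 GC boxes, all read as CCGCCC on the printed strand, a motif found in 33.1% of the 33469 promoters, and its GC content was 65.3% against a median of 51.7%. That of Cacng8, at 61.7% GC, held none of the 5. That of Cacng2, at 39% GC, held 3 matches to the TATA box, read as TTTATA, which 14.2% of promoters held. Of the other 3 members with an entry, Gria4 held 1 CCAAT box (37.5% of promoters), Cnih3 a GC box and an E-box (6.42% of promoters) and Cacng3 1 GC box, and the cAMP response element, in 1.83% of promoters, was in none of the 6. A match of letters is a description of the window.

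Relations among the members were examined over all 36 pairs, with Spearman's rho and Pearson's r on log2(normalized count + 1) and two-sided permutation tests of 100000 permutations. Spearman's rho was positive in 22 pairs, with a median of 0.12 and a range from -0.63 to 0.72. Each member also served in turn as the covariate of an edgeR fit, with Benjamini-Hochberg adjustment over the 11727 to 11729 other genes tested. 7 pairs passed in both directions of fit and 2 in 1 direction, 16 calls in all.

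The share of all genes called in such a fit was 33% for Gria1, 19.2% for Gria2, 8.31% for Gria3, 18.7% for Gria4, 12.9% for Cnih2, 0% for Cnih3, 0.136% for Cacng2, 24% for Cacng3 and 28.6% for Cacng8. Of the 8 other members, the fit on Cacng8 called 4, that on Gria2 3, those on Gria3, Gria4, Cnih2 and Cacng3 2 each, and that on Gria1 1. The fits on Cnih3 and Cacng2 called none, with 0 and 2 members at an unadjusted p under 0.05, and DESeq2 called 0 and 1. In the edgeR fit on Cacng2, 2105 of the 11728 genes had an unadjusted p under 0.05. For Cnih3 no gene at all was called by edgeR or DESeq2, with 1366 genes at an unadjusted p under 0.05 in edgeR. These shares changed with the block as a term, the fit on Cacng8 then calling 964 genes and that on Gria3 1872, against 3350 and 975 without it.

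**Figure D3:**
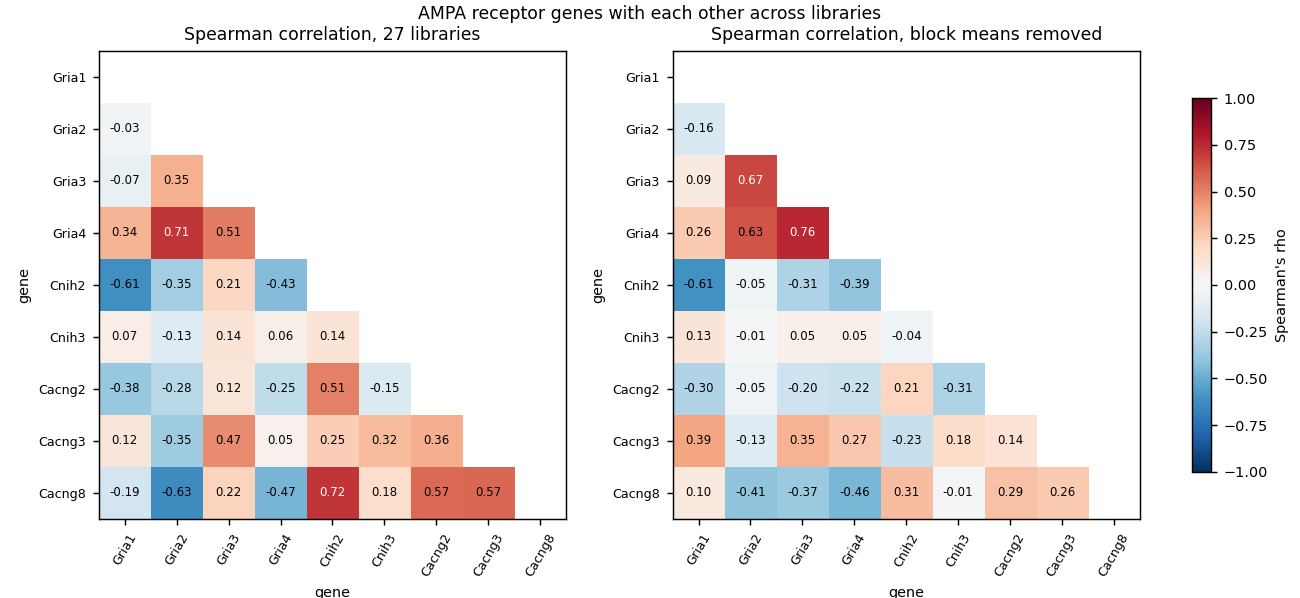
Spearman's rho for each pair of the 9 genes over 27 libraries (left) and after subtracting block means (right), both axes listing genes and colour giving rho from -1 to 1. Gria2, Gria3 and Gria4 form a positive corner in both panels, 0.35 to 0.71 on the left and 0.63 to 0.76 on the right, and Cnih2 with Gria1 is -0.61 in both.

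The subunits Gria2, Gria3 and Gria4 rose and fell together, all 3 pairs passing in both directions over the 27 libraries and with the block as a term. Gria2 and Gria4 had rho = 0.71 (permutation p = 5e-05) and r = 0.79, with r = 0.65 without the 2 libraries farthest from the median of Gria2, 26 and 51. Within blocks, rho was 0.62 in the first block and 0.63 in the second. Per SD of Gria2, Gria4 rose by 0.16 on the log2 scale (edgeR, adjusted p = 4.15e-05).

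Gria3 and Gria4 had rho = 0.51 (permutation p = 0.007) and r = 0.66, with r = 0.45 without libraries 26 and 51. In the first block rho was 0.91 (permutation p = 1e-05) and in the second 0.45 (permutation p = 0.173). Gria2 and Gria3 had rho = 0.35 (permutation p = 0.0712) and r = 0.54 (permutation p = 0.00349), falling to r = 0.18 without libraries 26 and 51, so the pooled value of that pair rests on those libraries. Within blocks the pair had a higher rho, 0.64 in the first and 0.78 in the second, and with the block means removed 0.67. Library 26 is in the first block and 51 in the second, so these values still include them. None was computed without them. Without libraries 12 and 20 edgeR called Gria2 and Gria3 in neither direction (adjusted p = 0.0775 and 0.172), and with no filter on low counts in 1 of the 2 (adjusted p = 0.0358 and 0.0530). Gria1 did not follow the other subunits, with rho = -0.03 with Gria2, -0.07 with Gria3 and 0.34 with Gria4, none called. In the first and second block these were -0.09 and -0.23, 0.38 and -0.30, and 0.49 and -0.01.

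Gria1 and Cnih2 went in opposite directions by rank, rho = -0.61 (permutation p = 0.00086), and by r = -0.37 (permutation p = 0.0562), which became -0.70 without libraries 3 and 18, farthest from the median of Gria1. Within blocks, rho was -0.69 in the first block (permutation p = 0.0043) and -0.60 in the second (permutation p = 0.0557). The edgeR fit did not call the pair (adjusted p = 0.117 and 0.126), but called it in both directions with the block as a term (adjusted p = 0.0428 and 0.0312) and without library 3, an alternative chosen after seeing the data (adjusted p = 0.0243 and 0.0422). Library 12, highest for Gria1, was the lowest for Cnih2, and library 54, highest for Cnih2, was the third lowest for Gria1. Without libraries 12 and 20 rho was -0.54 and edgeR gave adjusted p of 0.401 and 0.256.

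Cnih2 and Cacng8 had rho = 0.72 (permutation p = 5e-05) and r = 0.61, with r = 0.53 without libraries 54 and 12. Per SD of Cnih2, Cacng8 rose by 0.17 on the log2 scale (edgeR, adjusted p = 0.00528). Both genes were higher in the second block, and within blocks rho was 0.30 (permutation p = 0.264) and 0.37 (permutation p = 0.256). With the block as a term the pair was not called (adjusted p = 0.668 and 0.796).

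Cacng2 rose with both of these genes, with Cnih2 (rho = 0.51, permutation p = 0.00775, r = 0.53) and with Cacng8 (rho = 0.57, permutation p = 0.00231, r = 0.57), each pair passing in 1 direction of fit. Within the first block rho was 0.41 with Cnih2 and 0.19 with Cacng8, and in the second 0.02 and 0.27. Neither pair was called with the block as a term. Without libraries 12 and 20 Cacng2 was not called in the fit on Cnih2 (edgeR, adjusted p = 0.127), while Cacng2 and Cacng8 passed in both directions with DESeq2 and without library 3 (adjusted p = 0.0239 and 0.0390 in the fits on Cacng2).

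**Figure D4:**
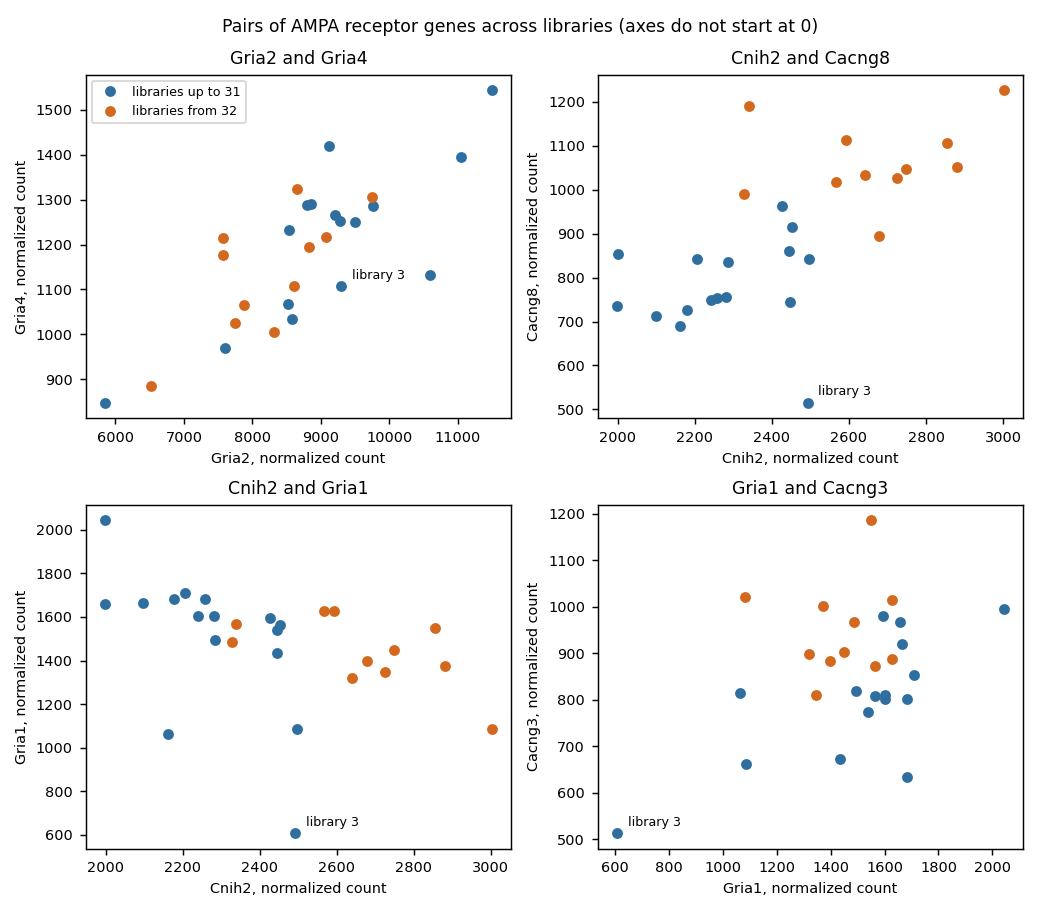
Normalized counts of 4 pairs of genes, 1 point per library, blue up to 31 (n = 16) and orange from 32 (n = 11), with library 3 named. Gria4 rises with Gria2 in both blocks, Cacng8 against Cnih2 parts into the blocks, Gria1 falls with Cnih2, and Cacng3 against Gria1 has library 3 at its lower left end.

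The TARPs Cacng3 and Cacng8 had rho = 0.57 (permutation p = 0.00226) and r = 0.69, called in both directions (edgeR, adjusted p = 0.000753 and 0.000660). Within blocks rho was 0.28 (permutation p = 0.300) and 0.21 (permutation p = 0.540). With the block as a term 1 direction passed and the other did not (edgeR, adjusted p = 0.0465 and 0.0607). Cacng2 and Cacng3 had rho = 0.36, -0.02 in the first block and 0.37 in the second, and were not called in either direction.

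Cacng8 and Gria2 were the 1 pair called with a negative relation over the 27 libraries without the block as a term. For this pair rho was -0.63 (permutation p = 0.00065) and r was -0.51, and rho was -0.37 in the first block and -0.58 in the second (permutation p = 0.163 and 0.0654). With the block as a term the pair was not called (edgeR, adjusted p = 0.0930 and 0.168). Cacng8 and Gria4 had rho = -0.47 pooled, -0.29 in the first block and -0.81 in the second, and, of the fits run, passed only in edgeR without library 3.

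Gria1 and Cacng3 passed in both directions (edgeR, adjusted p = 0.0278 and 0.0492) and with the block as a term (adjusted p = 0.00211 and 0.0126), but not without library 3, lowest for both. Gria1 in the fit on Cacng3 also missed the threshold with DESeq2 size factors, with no filter and without libraries 12 and 20 (edgeR, adjusted p = 0.0506, 0.0554 and 0.0913). The pooled rho over 27 libraries was 0.12, r was 0.52, and r without library 3 was 0.15. In the first block, which holds library 3, rho was 0.47 and r 0.74, and in the second they were 0.04 and 0.03. Without library 3, edgeR gave an adjusted p of 0.660 and 0.730. Libraries 3 and 18 were farthest from the median of Gria1, and without them r was 0.13.

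Over all 36 pairs, rho had the same sign in both blocks in 21, 11 positive and 10 negative. With the block as a term, 12 calls were made, 9 of them shared with the 16. Without library 3 there were 19, 14 of them shared.

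Scores of 7 cell type marker lists, each the mean of standardized log2 values, were used the same way, 1 edgeR fit a score. 4 of 9 members rose with the pyramidal neuron score and none fell, where 32.8% of genes were called in either direction and 17.3% as rising. Per SD of the score, Gria1 rose by 0.24 on the log2 scale (standard error 0.04, edgeR, adjusted p = 4.61e-05), Cacng3 by 0.20 (standard error 0.03, adjusted p = 1.57e-05), Cacng8 by 0.14 (adjusted p = 0.0358) and Gria3 by 0.08 (adjusted p = 0.0303).

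With the block as a term Cacng8 and Gria3 did not pass (edgeR, adjusted p = 0.273 and 0.110), Gria4 did, at 0.10 (adjusted p = 0.0352), and Gria1 and Cacng3 still did. Cacng8 had rho = 0.27 with the score over all libraries, 0.13 in the first block and -0.51 in the second.

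Library 3, at a score of -3.40, was far from the rest. Without it Gria1 and Cacng3 still passed, at 0.12 (edgeR, adjusted p = 0.0212) and 0.14 (adjusted p = 0.00395), while Gria3 and Cacng8 did not, and 1507 genes were called in place of 3849. Spearman's rho with the score was 0.40 for Gria1 (permutation p = 0.0405, r = 0.78, and 0.39 without libraries 3 and 19) and 0.61 for Cacng3 (permutation p = 0.00081, r = 0.79, and 0.59 without them). In the first and second block rho was 0.68 and 0.23 for Gria1 and 0.71 and 0.19 for Cacng3. Cnih2 had rho = 0.04 over all libraries, -0.66 in the first block and -0.10 in the second.

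The other 6 scores called none of the 9 members. They called 1.75% of genes for interneurons, 1.45% for oligodendrocytes, 1.25% for astrocytes, 0.546% for microglia, 2.39% for meningeal fibroblasts and 0.0341% for striatal projection neurons (edgeR). At an unadjusted edgeR p under 0.05 they named 2, 1, 3, 0, 0 and 0 of the 9 members. At that threshold they named 2418, 1330, 1834, 894, 758 and 1060 genes, of 11723 or 11724 tested. DESeq2 also called no member. Cacng3 fell by 0.14 per SD of the oligodendrocyte score when the block was a term (edgeR, adjusted p = 0.00937), which was the one member called there. Without the block term the slope was -0.11 (adjusted p = 0.239), and -0.06 (adjusted p = 0.687) without library 3, which had the highest oligodendrocyte score and the lowest Cacng3.

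Shares within a family do not depend on the scaling between libraries. They are shares of counts, uncorrected for transcript length, and are read for 1 gene across libraries only. Gria2 gave 56.6% ± 3.18 of the 4 Gria counts, Gria3 26.04% ± 2.10, Gria1 9.67% ± 2.06 and Gria4 7.65% ± 0.501 (SD, n = 27). Of the 3 Cacng counts, Cacng8 gave 41.5% ± 3.13, Cacng3 40.2% ± 3.55 and Cacng2 18.3% ± 2.66 (SD, n = 27). The share of Gria1 was lowest in library 3, 4.22%, against 6.53% in the next.

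The share of Gria3 parted the blocks. It was 22.5% to 25.9% in the 16 first-block libraries and 26.5% to 30.3% in the 11 of the second, with no overlap. Normalized counts, a different measure, parted the blocks without overlap for 0.324% of 11730 genes. How often shares within other gene families do so was not computed. The mean share of Gria3 rose from 24.6% ± 1.06 to 28.2% ± 1.16 (SD), by 3.60 percentage points (two-sided permutation test, p = 1e-05, the smallest 100000 permutations can give). The share of Gria2 moved the other way, from 58.0% ± 3.21 to 54.6% ± 1.80, by -3.42 points (permutation p = 0.00307). It ran from 52.2% to 64.4% in the first block and from 52.5% to 57.5% in the second, so the ranges overlapped.

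The shares of Gria1 and Gria4 differed by -0.04 and -0.14 points (permutation p = 0.966 and 0.470). Among the Cacng genes the share of Cacng8 rose from 40.2% ± 2.93 to 43.4% ± 2.44, by 3.17 points (permutation p = 0.00721), and those of Cacng3 and Cacng2 differed by -2.42 and -0.76 points (permutation p = 0.0827 and 0.492). In all 7 shares were tested, and those of 1 family sum to 100%, so they are not independent. The test on normalized counts of Gria3 between the blocks, given above, gave an edgeR adjusted p of 0.116.

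**Figure D5:**
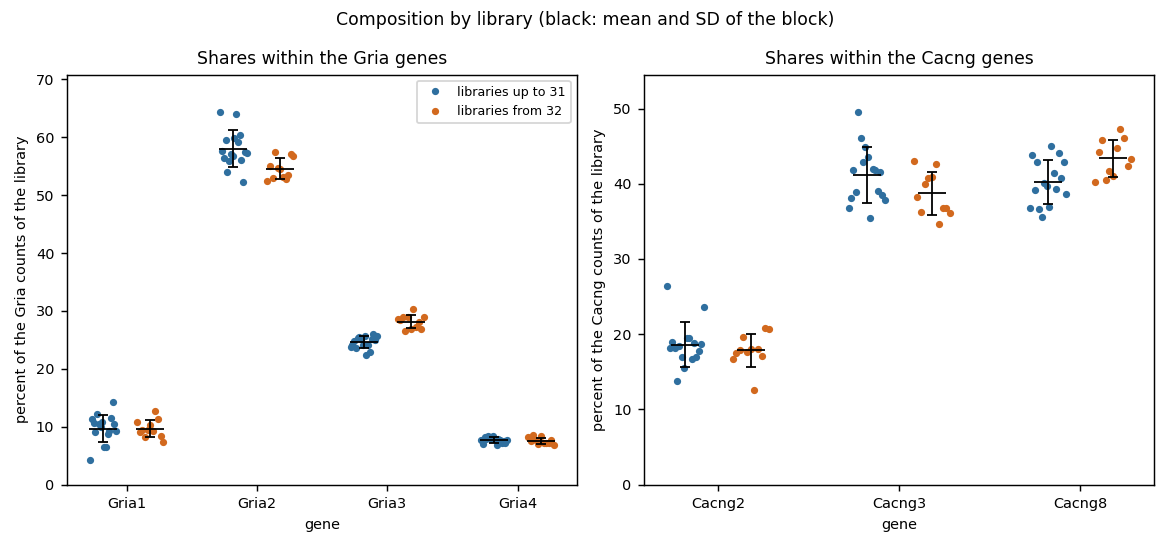
Percent of the Gria counts (left) and of the Cacng counts (right) given by each gene (x axis), 1 point per library, blue up to 31 (n = 16) and orange from 32 (n = 11), with block mean and SD in black and the y axis from 0. The Gria3 points part at about 26%, none of the first block above 25.9% and none of the second below 26.5%.

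The genes most like each member were ranked by Spearman's rho among the 11729 other genes whose counts averaged 10 or more, as a description with no test. Cnih2 was closest to Tle5 (0.89), a transcriptional corepressor, then Scand1 (0.88), Npdc1 (0.87), Agap3 (0.85) and Pgls (0.84), an enzyme of the pentose phosphate pathway. For Tle5 rho was 0.69 in the first block and 0.92 in the second. Cacng8 was closest to Icam5 (0.95), the adhesion molecule telencephalin, and Numbl (0.94), and Cacng2 to the neuronal RNA-binding protein genes Rbfox3 (0.80) and Elavl3 (0.75). Some of these were lower within blocks, Icam5 at 0.89 in the first and 0.62 in the second, Rbfox3 at 0.54 and 0.66, and Elavl3 at 0.41 and 0.68.

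Cacng3 was closest to Phyhip (0.92), and Gria1 to Glg1 (0.92) and Tspyl4 (0.91). Gria2 was closest to Psip1 (0.93) and Morf4l2 (0.90), Gria4 to Synpr (0.91), a synaptic vesicle protein, and Tmem106b (0.90), and Gria3 to Kiaa0408L (0.88). Cnih3 had no close match, its highest being Get1 (0.64) and Ndrg4 (0.64). An absolute rho above 0.5 was shared by 1.01% of the 11729 other genes for Cnih3, against 7.05% to 22.2% for the other members, so high values are common in these libraries. Of the 31 tested genes of the 4 pathway lists, 3 rose per SD of Cnih2 (edgeR), Prrt1 by 0.20, Cpt1c by 0.11 and Olfm1 by 0.08, and none fell, where this fit called 12.9% of all genes. These 3 genes, like Cnih2, were higher in the second block.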

How the data were processed

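Gene expression in the mPFC of 27 rats was measured by RNA sequencing. The deposited table holds raw counts per gene, named by NCBI gene ID. Per the submitters' processing notes the authors used Trimmomatic, STAR and HTSeq, with versions, genome build, annotation and strand setting not given in the sources used here, so reads of overlapping genes cannot be told apart and reads shared by related genes are uncertain. The labels name a TruSeq kit and a thinner brain section, the study's methods another kit and section. Symbols came from RefSeq (GRCr8), which matched 28157 of 36865 rows, holding 99.7% of counts. No row of the table lacked a gene ID.

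Counts were divided by DESeq2 (1.42.0) median-of-ratios size factors. Genes averaging 10 counts or more were tested with edgeR (4.0.16, R 4.3.3) quasi-likelihood tests after filterByExpr and TMM normalization, at a Benjamini-Hochberg adjusted p under 0.05, and by permutation in scipy 1.17.1 and numpy 2.4.6. The steps were tested on simulated data. Members, lists and depth blocks were chosen with earlier results of these data known. The text names the 9 members, up to 5 passing genes of the other pathway lists in the block and Cnih2 fits, the 5 genes most like Cnih2 and 2 for each other member, of which some are not reported here. Each library is 1 rat. Alternatives were other normalization, filter, pseudocount and DESeq2, the block as a term, and leaving out marked libraries.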

Additional observations from a re-analysis of the deposited data

How the results depend on the processing

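All 9 members varied beyond counting noise under every alternative run, and the 4 members higher in the second block remained called in all 5 alternatives to the block test, with Cacng8 at 0.41 to 0.45 on the log2 scale (edgeR or DESeq2, adjusted p from 3.32e-09 to 4.73e-05). The calls among members numbered 16, and 12 to 19 under the alternatives. Without library 3, chosen after seeing the data, the members rising with the pyramidal neuron score fell from 4 to 2 and its calls over all genes from 3849 to 1507. Without libraries 12 and 20, the difference in the Gria1 share turned from -0.0358 to 0.0749 percentage points, neither passing (permutation p = 0.966 and 0.932). Cacng8 in the fit on Gria1 was not called in the 27 libraries (0.06), was called as rising with the block as a term (0.08, edgeR, adjusted p = 0.0431) and was -0.06 without library 3 (adjusted p = 0.436).

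Counts over all genes moved by more than 1.5 times in these fits. Without library 3 they went from 3866 to 1567 for Gria1, 975 to 642 for Gria3, 2819 to 1168 for Cacng3, 16 to 79 for Cacng2, 205 to 83 for the interneuron score and 4 to 11 for the striatal score. Without libraries 12 and 20 they went from 975 to 600 for Gria3, 2189 to 1022 for Gria4, 1516 to 495 for Cnih2, 16 to 1 for Cacng2 and 205 to 0 for the interneuron score (edgeR, 1772 at an unadjusted p under 0.05). With the block as a term they were 1872 for Gria3, 964 for Cacng8 (3350 without it), 0 for Cacng2 (edgeR, 754 at an unadjusted p under 0.05), 502 for the interneuron, 380 for the oligodendrocyte (170 without it) and 1 for the striatal score. DESeq2 called 344 for Cacng2, 543 for the interneuron, 260 for the oligodendrocyte, 281 for the astrocyte (146 in edgeR), 115 for the microglia (64 in edgeR) and 28 for the striatal score. With no filter on low counts they were 7 for Cacng2, 135 for the interneuron and 10 for the striatal score. The cause of these changes was not tested. No paired analysis was possible because the libraries form 1 group.

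Depth limits Cnih3 most, at 69 to 248 counts a library. The block, the depth and anything else that went with the library number cannot be told apart, and relations that parted into blocks, such as Cnih2 with Cacng8, have 16 and 11 libraries behind their within-block values. Correlations across libraries share the same size factors, and Rn18s shares were high in libraries 12 and 20.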
